A study of Mus musculus with 12 samples.

Results

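The 82 genes described here carry the names of proteins of the cytosolic ribosome, 49 of the large subunit and 33 of the small subunit, out of 37620 genes counted. Rpl6l and Rps4l are annotated as processed pseudogenes and the other 80 as protein-coding genes. All 82 were chosen by name alone, as Rpl or Rps followed by a number together with Rplp0, Rplp1, Rplp2 and Rpsa. Numbered pseudogenes, the Rps6k kinases and copies named Gm were left out. Stranded mRNA sequencing was done on neural stem cells of E14.5 embryos (C57BL/6J mice) and grown in medium that contained EGF and FGF-2. The Tcf3 gene yields 2 splice forms, E12 and E47, both E proteins that bind DNA through a basic helix-loop-helix domain. The groups were E12KO (genotype E12-/-), E12wt (litter mates, E12+/+), E47KO (E47-/-) and E47wt (litter mates, E47+/+), with 3 libraries each. The labels name no Cre or conditional allele, and separate embryos or cultures are not stated for the replicates, so a p-value here reflects library-to-library spread that may be technical.

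Each ribosome holds its ribosomal proteins in fixed proportions around the ribosomal RNAs, and proliferating progenitors spend a large part of their transcription on them. Their mRNAs start with a pyrimidine tract, the TOP element, through which growth signalling by mTORC1 sets their translation together. The small subunit reads the mRNA, the large subunit joins the amino acids, and the acidic P proteins form a stalk that recruits the elongation factors.

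The libraries held 34515297 to 56835783 reads on genes, and every member had at least 3 reads in each library. E47KO replicate 2 stood apart from its group, with a chi-square per degree of freedom of 115 and 214 against the other E47KO libraries, where the other pairs of a group had 11.99 to 40.9. All 10 stem cell markers averaged over 10 CPM (counts scaled to library size) across the libraries, with sums of 7579 to 8959 CPM per library, led by Fabp7, Vim and Nes. All 5 microglial and all 4 erythroid markers averaged under 1 CPM, and P2ry12 reached 1.05 CPM at its highest. Counts over the whole of Tcf3 take in both splice forms and so do not check the genotypes. Xist lay at 890.3 CPM or more in the E12 libraries and in E47wt replicates 1 and 3, and under 1 CPM in E47wt replicate 2 and all E47KO libraries, so the E47 groups differed in their Xist state. The cells of a library are mixed, and fewer cells of a type and less RNA per cell cannot be told apart.

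The ribosomal protein genes were among the strongly transcribed genes of these cells. Together they took 4.29, 3.99 and 4.61% of the gene reads in the E12KO libraries and 3.96, 4.27 and 4.35% in the E12wt libraries. They took 4.84, 4.72 and 4.599% in the E47KO libraries and 4.42, 4.33 and 4.42% in the E47wt libraries. The share was thus spread widely inside both E12 groups, and each E47KO library lay above each E47wt library. The counting error of such a share was small, with a 95% Wilson interval of 4.71 to 4.72% in E47KO replicate 2, the shallowest library. The large subunit genes held 1.34 to 1.36 times the reads of the small subunit genes in every library, so both subunits moved together from library to library.

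Per length, the levels ran from Rps24 at 1738 ± 67.8 RPKM, the CPM per kilobase of transcript (SD, n = 12), down to Rps4l at 2.24 ± 0.90 RPKM. The 8 highest were Rps24, Rpl3 (1647 ± 85.7 RPKM), Rplp0 (1511 ± 189), Rps4x (1389 ± 42.3), Rpl7 (1364 ± 48.7), Rpl13a (1299.6 ± 144), Rpl23 (1216 ± 51.8) and Rps3a1 (1209 ± 54.7). Rpl3 is the protein next to the peptidyl transferase centre, and Rplp0 anchors the stalk. Most neighbours in this order differed by less than their SD, such as Rps4x and Rpl7 or Rpl23 and Rps3a1. The order depended on the length chosen for each gene. With the longest annotated transcript in place of the median coding one, 3 of these 8 were still among the 8 highest and Rps24 moved to rank 64.

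The low end was less crowded. Below Rpl22l1 at 240 ± 17.6 RPKM came Rpl22 (164 ± 5.96), Rpl36 (152 ± 43.9), Rpl36al (140.5 ± 13.8), Rpl7l1 (129 ± 10.5) and Rps20 (113 ± 9.28), whose annotated coding length is unusually long at 3706 bases. Far below them lay Rpl6l at 3.65 ± 0.63 RPKM and Rps4l. These last 2 are annotated as processed pseudogenes in the GENCODE reference, and the other 80 members as protein-coding genes. Reads mapping to several places, 4.49 to 5.16% of all reads, were left out of the counts. Ribosomal protein genes have many near-identical processed copies, so their levels are lower limits. The 197 pseudogene copies with a ribosomal protein's symbol held reads amounting to 0.464 to 0.733% of the members' reads, and 49 of them averaged at least 1 CPM.

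**Figure D1:**
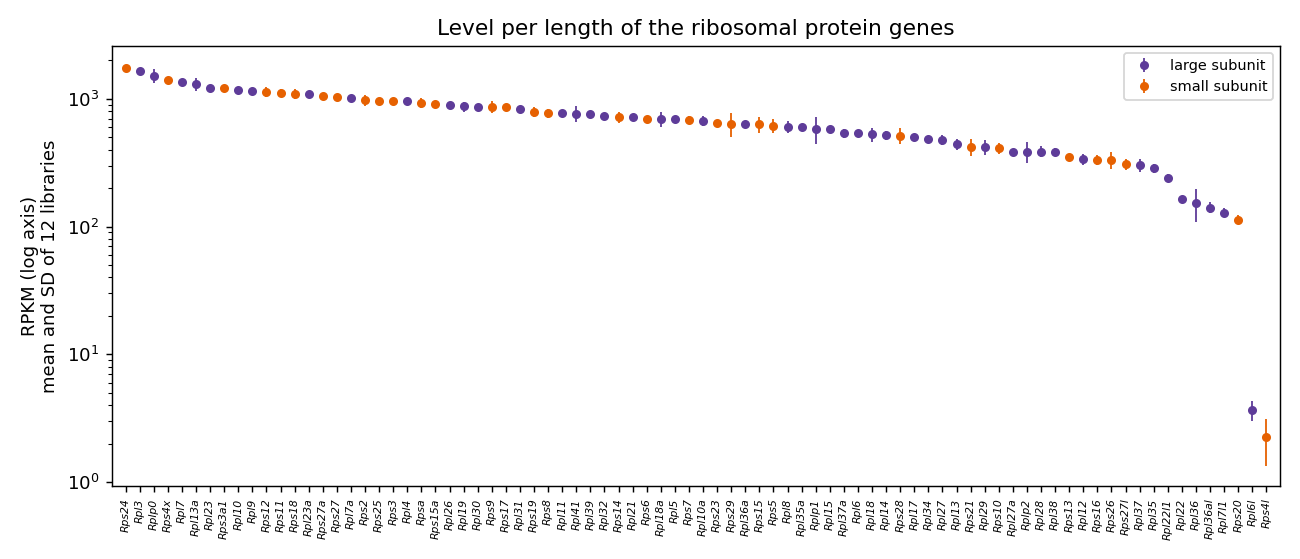
Level per length of each of the 82 ribosomal protein genes in RPKM on a log axis, ordered from highest to lowest; points are means and bars SD over the 12 libraries, coloured by subunit. All but Rpl6l and Rps4l lie above 100 RPKM.

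Among the members are 6 pairs of a gene and a paralog that encodes, or once encoded, a similar protein. By the median coding length the paralog lay below its partner in 5 of the 6 pairs. Rpl7 stood at 1364 and Rpl7l1 at 129 RPKM, Rpl36a at 636 and Rpl36al at 140.5 RPKM, Rps27 at 1023 and Rps27l at 308 RPKM, and Rpl6 at 536 and Rpl6l at 3.65 RPKM. Rps4x stood at 1389 and Rps4l at 2.24 RPKM. Rpl22, known to bind RNA outside the ribosome as well, stood at 164 RPKM with Rpl22l1 above it at 240 RPKM. With the longest transcripts that pair turned round, to 67.7 RPKM for Rpl22l1 and 164 RPKM for Rpl22.

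The members shared a large part of their variation between libraries, but they did not all move in the same direction. When each gene's log2 CPM was set against its own mean over the 12 libraries, the first principal component over the members held 72.5% of their variance. The genes were not scaled to equal variance, so the most variable members weigh most in it. The median member lay at −0.02, −0.12 and 0.09 in the E12KO libraries and at −0.15, −0.03 and −0.06 in the E12wt libraries. It lay at 0.14, 0.03 and 0.07 in the E47KO libraries and at 0.04, −0.01 and 0.00 in the E47wt libraries. In E47KO replicate 1, 80 of the 82 members were above their own mean, against 1 of 82 in E12wt replicate 1 and 11 of 82 in E12KO replicate 2. The E12KO libraries covered a range of 0.21 on this scale, against 0.11 in E12wt, 0.10 in E47KO and 0.05 in E47wt.

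**Figure D2:**
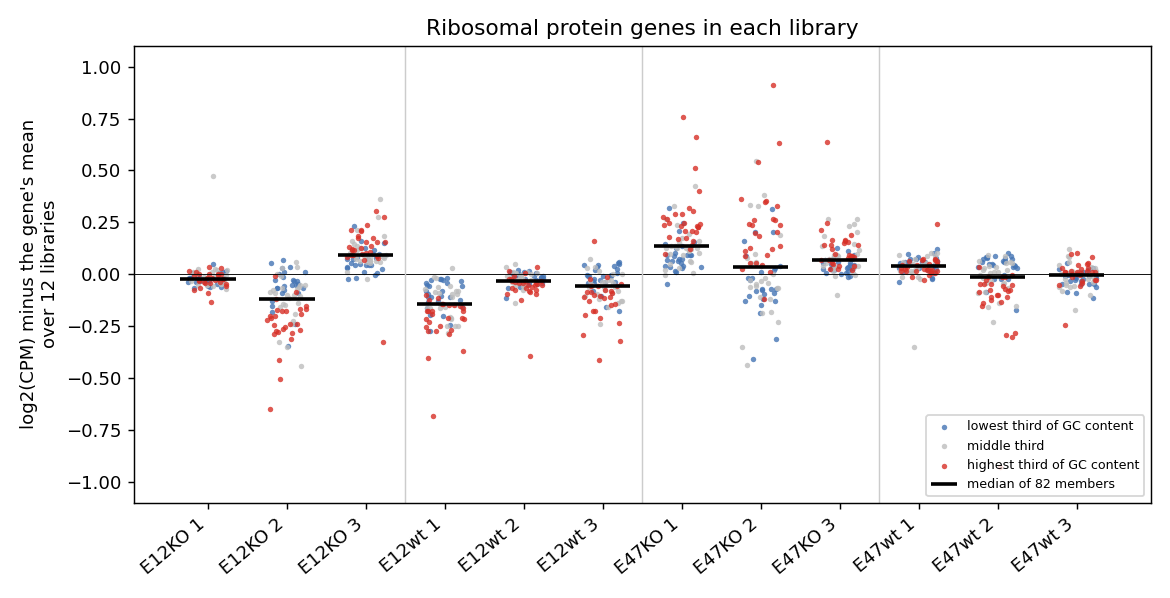
Log2 CPM of each of the 82 genes minus its own mean over the 12 libraries, by library, with a black bar at the median and points coloured by transcript GC content (27 low, 27 middle, 28 high). The bar lies highest in E47KO replicate 1 (0.14) and lowest in E12wt replicate 1 (−0.15), and the colours separate most in E12KO replicate 2 and E47KO replicates 1 and 2.

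The amplitude of these swings differed between members. With the median of each library taken off, the SD over the 12 libraries on the log2 scale was largest for Rps4l (0.53), Rpl36 (0.34), Rplp1 (0.27), Rpl6l (0.25) and Rps29 (0.23). It was smallest for Rpl23a (0.02), which lines the exit tunnel, Rpl7a (0.03), Rps3 (0.03), which sits at the mRNA entry, Rpl11 (0.03), which also binds Mdm2 in the p53 response, and Rpl15 (0.03). The median member had 0.08. Rpl36 spanned a 2.47-fold range between its lowest and highest library and Rpl23a a 1.19-fold range. The SD without that adjustment followed transcript GC content (Spearman rho 0.65 over the 82 members) and fell with the mean level (rho −0.57) and less with length (rho −0.28). These are descriptions across genes that share the same libraries.

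The windows around the transcription starts are printed so that the groups can be compared by eye. They are those of the members most and least variable with the library median taken off, among members with a RefSeq entry (GRCm38.p6). Each shows 60 bases before the start and 20 bases after it, 5′ to 3′ in the gene's direction. Capitals mark the letters CCGGAAG on either strand, the core bound by ETS factors, and CTCTTTC on the transcript's strand, a pyrimidine tract. The most variable members were:
Rplp2 (chr7:141447591-141447670, plus strand): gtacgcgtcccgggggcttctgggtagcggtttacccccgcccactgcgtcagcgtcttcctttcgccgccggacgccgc
Rpl36al (chr12:69184048-69184127, minus strand): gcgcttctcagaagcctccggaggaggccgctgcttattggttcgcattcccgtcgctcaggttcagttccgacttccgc
Rps27l (chr9:66946026-66946105, plus strand): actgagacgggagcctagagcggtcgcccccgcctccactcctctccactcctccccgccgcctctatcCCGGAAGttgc
Rps21 (chr2:180257319-180257398, plus strand): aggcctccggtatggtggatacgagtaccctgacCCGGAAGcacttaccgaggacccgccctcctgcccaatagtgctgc
Rps26 (chr10:128626487-128626566, minus strand): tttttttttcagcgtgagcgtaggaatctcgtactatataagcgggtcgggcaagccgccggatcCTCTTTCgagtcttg
Rps28 (chr17:33824543-33824622, minus strand): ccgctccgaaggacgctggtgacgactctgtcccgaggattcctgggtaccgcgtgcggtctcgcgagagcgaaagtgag
The least variable members were:
Rpl7a (chr2:26910747-26910826, plus strand): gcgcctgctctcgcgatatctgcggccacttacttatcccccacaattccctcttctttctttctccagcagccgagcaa
Rps3 (chr7:99483690-99483769, minus strand): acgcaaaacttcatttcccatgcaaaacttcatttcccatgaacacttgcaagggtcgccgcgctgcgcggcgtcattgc
Rpl11 (chr4:136053374-136053453, minus strand): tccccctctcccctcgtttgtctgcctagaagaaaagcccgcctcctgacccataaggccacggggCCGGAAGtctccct
Rpl15 (chr14:18270967-18271046, minus strand): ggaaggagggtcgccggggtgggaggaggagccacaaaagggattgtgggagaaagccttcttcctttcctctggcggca
Rpl26 (chr11:68901506-68901585, plus strand): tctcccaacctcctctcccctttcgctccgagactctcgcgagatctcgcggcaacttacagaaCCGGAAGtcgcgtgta

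Of the 82 members, 60 had such an entry. Over the full windows of 300 bases, 250 before and 50 after the start, CCGGAAG was present on either strand in 24 of 60 members, against 9.12% of all 27025 genes. The pyrimidine letters CTCTTTC stood on the transcript's strand in 12 of 60, against 3.91% of all genes. TATAAA on the transcript's strand stood in 6 of 60, against 8.88% of all genes. E proteins bind E-boxes, CANNTG. The E-box CAGCTG stood in 2 of 60 member windows, Rpl35 and Rpl6 (3.33%, against 16.1% of all genes), and CAGGTG on either strand in 6 of 60, against 20.03% of all genes, namely Rpl22, Rpl27, Rpl38, Rpl39, Rpl41 and Rps10. CAGCTG is its own reverse complement and was counted once. Among the windows printed, CCGGAAG lay close to the start in members of both groups. The member windows had a median GC content of 58.7%, against 52.7% over all windows.

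In cells without E12 no ribosomal protein gene passed the test, and nearly all lay slightly above their wild-type litter mates. The comparison asked whether loss of E12 shifts this set. With edgeR's quasi-likelihood test 0 of 82 members were called at an adjusted p under 0.05, where 0.0407% of the 14755 genes tested were called and 0.0136% were called higher in E12KO. DESeq2 also called 0 members (0.558% of all genes), and the smallest adjusted p of a member with edgeR was 0.528. The log2 fold change was above 0 in 77 of 82 members, against 51.4% of all genes, with a median of 0.07 against 0.00 over all genes. At an unadjusted p under 0.05 lay 1 member above wild type and 0 below, where 4.29% and 4.67% of all genes did so.

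That member was Rps27l (ENSMUSG00000036781, chromosome 9), a paralog of Rps27 known as a target of p53. It had 155, 160.5 and 170 CPM in the E12KO libraries, against 147, 148 and 142 CPM in the E12wt libraries. Every knockout library lay above every wild-type library, by a small margin. The log2 fold change was 0.16 ± 0.06 (SE, edgeR, adjusted p = 0.528). Rps27 itself had 392, 386 and 400.3 CPM in E12KO and 384, 408 and 416 CPM in E12wt, and these overlapped. The groups did not overlap, higher in E12KO, for 3 of 82 members, Rpl30, Rpl39 and Rps27l, where 6.46% of all genes behaved so, and for 0 members lower (7.17% of all genes).

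The highest E12 fold changes were those of a pseudogene and the stalk protein P1. Rpl6l had 4.36, 3.27 and 4.04 CPM in E12KO, against 2.97, 3.13 and 3.31 CPM in E12wt, a log2 fold change of 0.32 ± 0.16 (SE). Rplp1, which encodes P1, had 279, 200.2 and 344 CPM in E12KO, against 220, 261 and 227 CPM in E12wt (0.22 ± 0.17). The 3 E12KO values of Rplp1 enclosed all 3 wild-type values. Rpl36 (0.21 ± 0.21), Rpl41 (0.21 ± 0.11), Rps29 (0.18 ± 0.15), Rpl37 (0.16 ± 0.10) and Rps16 (0.16 ± 0.08) followed, all at adjusted p of 0.576 or more with edgeR. At the low end were Rps24 (−0.03 ± 0.06), Rps27 (−0.03 ± 0.06), Rpl9 (−0.02 ± 0.06), Rpl7 (−0.01 ± 0.06) and Rps27a (−0.01 ± 0.06), which is translated as a fusion with ubiquitin.

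The members' values in E12KO depended on which libraries were fitted. Without E12KO replicate 3 the median was 0.01 and 47 members lay above 0, with Rpl36 and Rps29 below 0. Without E12wt replicate 1 it was 0.02 with 60 above 0. Without E12KO replicate 2 it was 0.12 with 76 above 0 and 20 members at an unadjusted p under 0.05. At that p 820 of the 15026 genes tested without E12KO replicate 2 lay higher in E12KO, against 633 of 14755 with all libraries. With library-wise trends on transcript GC content and length taken out, a correction chosen after seeing the data, the median was 0.00 and 41 of 82 lay above 0. The summed share of reads averaged 4.29 ± 0.31% in E12KO and 4.19 ± 0.20% in E12wt (SD, n = 3 each), a difference of 0.102 percentage points (exact permutation test, two-sided, p = 0.7, where 0.1 is the smallest possible). The mesenchymal and meningeal markers summed to 1.27 to 1.64 CPM in E12KO and 7.89 to 10.6 CPM in E12wt, with Lum and Dcn under 1 CPM throughout and Col1a1, Col1a2 and Bgn, 3 of the 6, called lower in E12KO. The 6 neuronal markers summed to 52.2 to 69.7 CPM in E12KO and 71.9 to 117 CPM in E12wt. The 5 oligodendrocyte lineage markers summed to 310.0 to 346 CPM in E12KO and 331 to 586 CPM in E12wt, with 0 of 5 above 0, a median log2 fold change of −0.69 and none called. Their part in the result was not tested.

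In cells without E47 the members again lay mostly above wild type, and Rps4l, Rpl36, Rplp1, Rps29 and Rplp2 stood highest. With edgeR 0 of 82 members were called, where 0.0134% of the 14965 genes tested were and 0.00668% were called higher, DESeq2 called 0 (0.0221% of all genes), and the smallest adjusted p of a member with edgeR was 0.971. The log2 fold change was above 0 in 61 of 82 members, against 49.0% of all genes, with a median of 0.09 against −0.01. At an unadjusted p under 0.05 lay 9 members above wild type (1.13% of all genes) and 0 below (1.06% of all genes). The E47KO libraries lay above all E47wt libraries without overlap for 32 of 82 members, where 4.02% of all genes did so, and below for 0 (3.87% of all genes).

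The stalk proteins are listed first, since 2 of the 3 were among the 9. Both, Rplp1 at 57.3% GC and Rplp2 at 55.0%, belong to the 28 members with the highest GC content, described below. Rplp1 (ENSMUSG00000007892, chromosome 9) had 405, 413 and 316 CPM in E47KO, against 293, 233 and 304 CPM in E47wt. Its lowest knockout library was close above its highest wild-type library. The log2 fold change was 0.45 ± 0.15 (SE, edgeR, adjusted p = 0.971).

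Rplp2 (ENSMUSG00000025508, chromosome 7), the partner of Rplp1 in the stalk, had 225, 219 and 198 CPM in E47KO, against 178, 138 and 177 CPM in E47wt, a log2 fold change of 0.38 ± 0.13. The groups were apart, with E47wt replicate 2 the lowest library. Rplp0, which anchors both, had 1509, 1534 and 1439 CPM in E47KO, against 1295, 1177 and 1370.2 CPM in E47wt, also without overlap, and a log2 fold change of 0.22 ± 0.10 (SE). Eef2, the elongation factor that the stalk recruits, averaged 2565 ± 217 CPM in E47KO and 2141 ± 122 CPM in E47wt (SD, n = 3 each), a log2 fold change of 0.26 ± 0.11 (edgeR, adjusted p = 0.971). That was the highest of the 44 translation factors tested, of which 13 lay above 0, and Eef1a1, the elongation factor that delivers aminoacyl-tRNA, had −0.03 ± 0.09.

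The other large subunit members among the 9 were Rpl36, Rpl29 and Rpl18. Rpl36 (ENSMUSG00000057863, chromosome 17) had 88.8, 87.2 and 61.9 CPM in E47KO, against 59.2, 45.9 and 59.5 CPM in E47wt, and 0.53 ± 0.18 was its log2 fold change. E47KO replicate 3 lay just above the wild type. Rpl29 (ENSMUSG00000048758, chromosome 9) had 327, 320.5 and 300.3 CPM in E47KO, against 262, 240.1 and 267 CPM in E47wt, a log2 fold change of 0.30 ± 0.10, with a clear gap between the groups. Rpl18 had 345, 328 and 325 CPM in E47KO, against 292, 266 and 287 CPM in E47wt (0.24 ± 0.09).

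Of the small subunit, Rps29 (ENSMUSG00000034892, chromosome 12), a zinc-binding protein of the head of the subunit, had 327, 356 and 256 CPM in E47KO, against 247, 208 and 252 CPM in E47wt, a log2 fold change of 0.41 ± 0.15. The groups came close, at 256 CPM in E47KO and 252 CPM in E47wt. Rps28 had 234, 254 and 200.3 CPM in E47KO, against 193, 175 and 196 CPM in E47wt (0.29 ± 0.12). Rps15 had 413.5, 426 and 355 CPM in E47KO, against 334, 305 and 346 CPM in E47wt (0.28 ± 0.11). The 9th was the pseudogene Rps4l (ENSMUSG00000063171, chromosome 6) at 3.32, 3.70 and 3.06 CPM in E47KO, against 2.33, 1.03 and 1.66 CPM in E47wt, the largest log2 fold change of a member at 1.01 ± 0.31. Its reads are few and uncertain, since it is a processed copy of another small subunit gene.

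**Figure D3:**
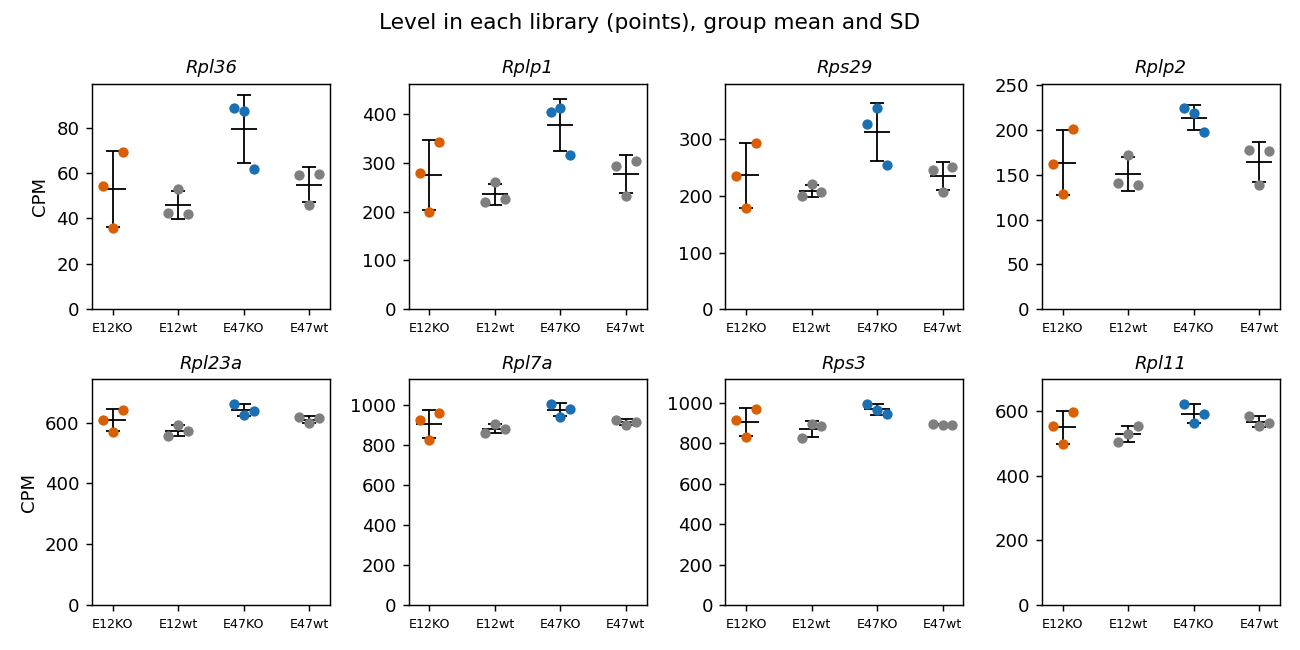
CPM in each library with group mean and SD, n = 3 each. The upper row shows 4 of the members that varied most once the library median was taken off. The lower row shows 4 of those that then varied least, and the CPM plotted still hold the library medians. In the upper row E47KO replicates 1 and 2 lie above every other library, and the E12KO points spread more widely than the E12wt points. In the lower row the libraries lie close together, within a 1.19-fold range for Rpl23a.

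The lowest fitted values in E47KO were those of 3 paralogs, and they turned in sign without E47KO replicate 2. Rps27l had 169, 115 and 158 CPM in E47KO, against 166, 157 and 156 CPM in E47wt, a log2 fold change of −0.12 ± 0.15, and Rpl36al had 108, 78.2 and 122 CPM in E47KO, against 114, 108 and 108 CPM in E47wt (−0.10 ± 0.16). In both genes E47KO replicate 2 was the lowest of the 12 libraries. Rpl22l1 (−0.09 ± 0.13), Rpl5 (−0.07 ± 0.10), Rps27a (−0.07 ± 0.11), Rpl39 (−0.07 ± 0.09), Rpl7 (−0.07 ± 0.09) and Rps24 (−0.05 ± 0.10) completed the lower end. Without E47KO replicate 2 Rps27l had 0.03, Rpl36al 0.06 and Rpl22l1 0.02. The median of the members was then 0.11 with 76 of 82 above 0, and without E47KO replicate 1 it was 0.06 with 54 of 82 above 0.

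**Figure D4:**
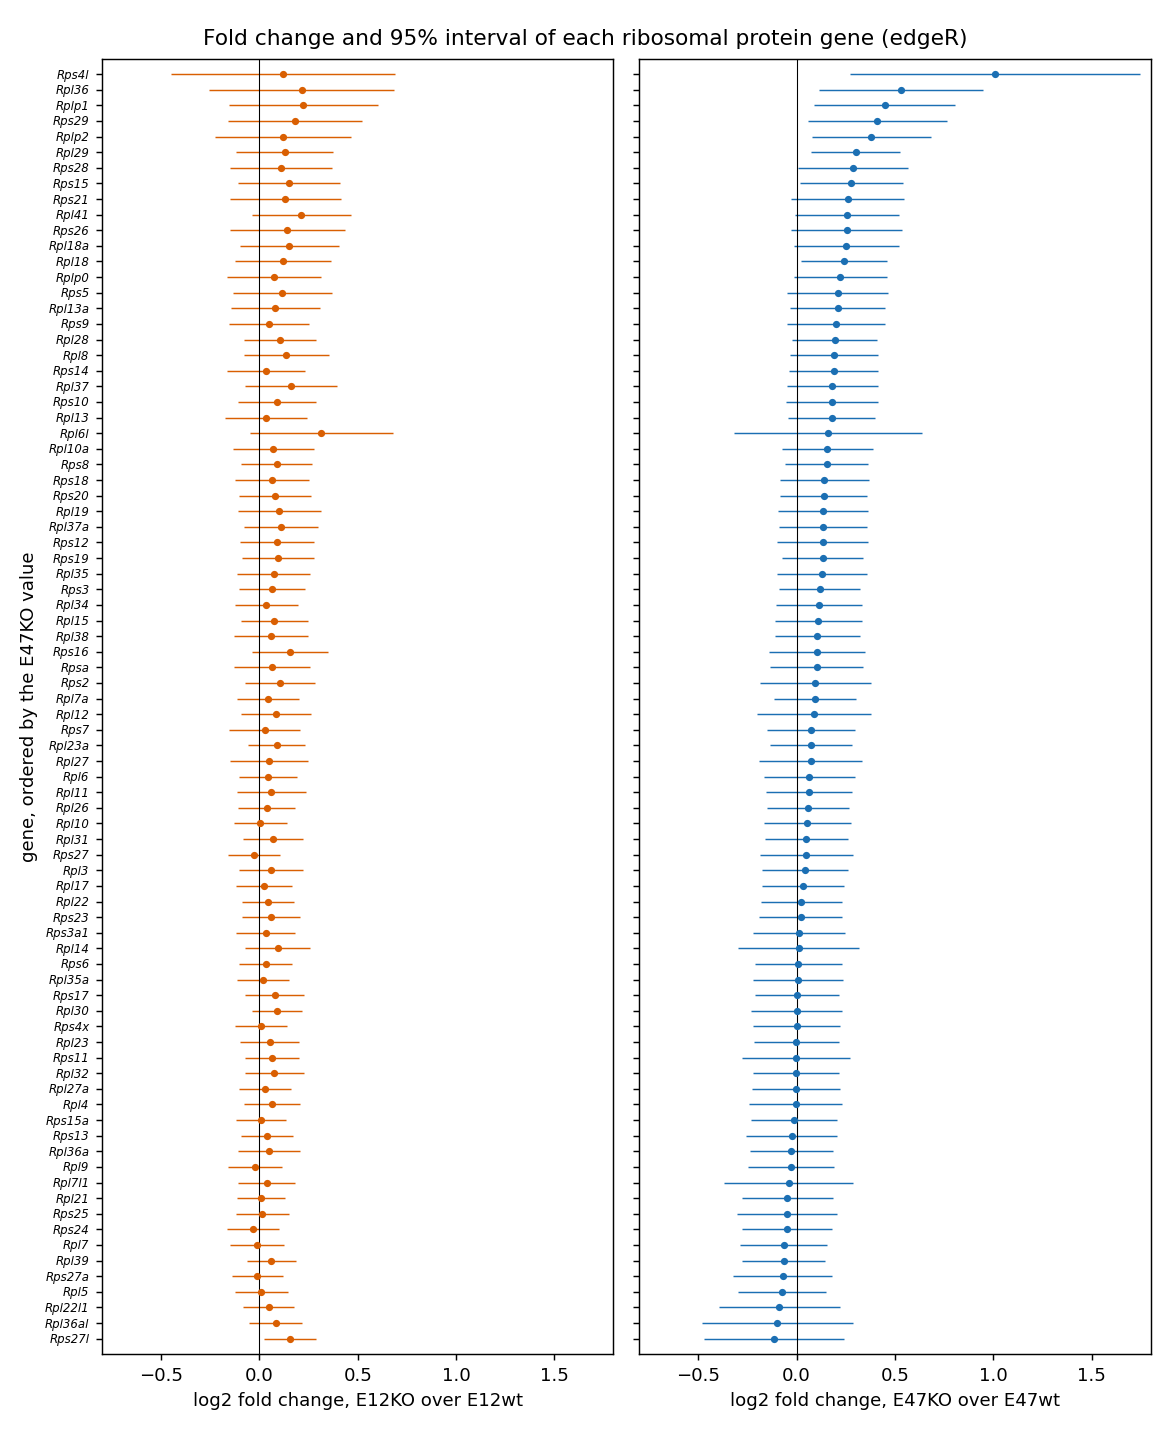
Log2 fold change with its 95% interval (edgeR) for each of the 82 genes in E12KO over E12wt (left) and E47KO over E47wt (right), in the order of the E47KO value. In E12KO the intervals are narrow and 1 excludes 0, and in E47KO 9 exclude 0 before adjustment and the spread between genes is larger.

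The members' share of the reads averaged 4.72 ± 0.12% in E47KO and 4.39 ± 0.05% in E47wt (SD, n = 3 each). The difference of 0.329 percentage points had an exact two-sided permutation p of 0.1, the smallest that 3 against 3 libraries allow, and the groups did not overlap. Between libraries of the same number, taken as pairs, the differences were 0.421, 0.386 and 0.181 percentage points. An exact two-sided sign-flip test, chosen after seeing the data, gave p = 0.25, the smallest that 3 pairs allow. The large subunit took 2.70 ± 0.07% in E47KO and 2.52 ± 0.03% in E47wt, and the small subunit 2.02 ± 0.05% in E47KO and 1.87 ± 0.02% in E47wt. With the replicate number as a block, 5 members lay at an unadjusted p under 0.05, Rplp1, Rplp2, Rpl29, Rpl36 and Rps4l. Without E47KO replicate 1 or E47wt replicate 2 only Rps4l did. Without E47wt replicate 1 the count was 5, without E47KO replicate 2 it was 10 and without E47KO replicate 3 it was 15. With all libraries it was 9. Over all genes, the counts higher in E47KO at that p were 78, 214, 980 and 169 in the same order. They were 224 with the block, 163 without E47KO replicate 1 and 54 without E47wt replicate 2, of 14965 to 15338 genes tested. The astrocyte markers summed to 111 to 237 CPM in E47KO and 36.9 to 120 CPM in E47wt, with Gfap under 1 CPM in every library, and their part in the result was not tested. Since all E47KO libraries and 1 of 3 E47wt libraries were Xist-low, Xist state and genotype are partly confounded here. With the Xist state as a covariate the median was 0.11 and 57 members lay above 0. That fit in effect sets the E47KO libraries against E47wt replicate 2 alone, the only Xist-low wild type. It therefore cannot separate the knockout from what is particular to that library.

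The E47KO values differed along transcript GC content. The 28 members with the highest GC content (54.1 to 60.8%) all lay above 0, with a median log2 fold change of 0.19, and 22 of them did not overlap between groups. Over all 3913 genes tested in that range of GC content, 76.1% lay above 0, the median was 0.14 and 9.51% did not overlap, higher in E47KO. Of the 27 with the lowest (39.8 to 49.5%), 11 lay above 0, the median was 0.00, and 5 did not overlap. Over all 6073 genes in that range, 29.4% lay above 0, the median was −0.08 and 1.23% did not overlap, higher in E47KO. Over the 82 members the log2 fold change and GC content had a Spearman rho of 0.73 in E47KO and 0.49 in E12KO, as a description over genes that share libraries. Over all genes tested the same rho was 0.44 in the E47 comparison (14474 genes) and 0.08 in the E12 comparison (14261 genes). By library, the rho over all expressed genes was 0.49, 0.35 and −0.02 in E47KO and −0.03, −0.43 and 0.02 in E47wt, and it was 0.12, −0.60 and 0.17 in E12KO and −0.36, −0.29 and −0.16 in E12wt. The part of this library trend in the members' values was examined only by the correction. With the trends on GC content and length taken out, the E47 median was 0.05 with 60 of 82 above 0 and 7 members at an unadjusted p under 0.05. At that p 93 of the 14965 genes tested lay higher in E47KO after the correction, against 169 without it.

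**Figure D5:**
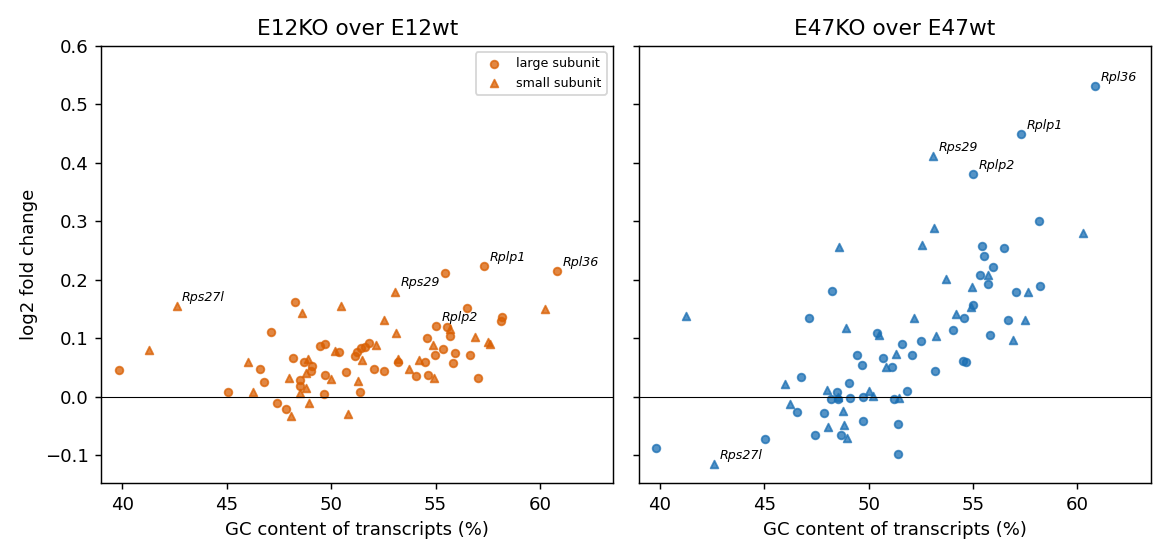
Log2 fold change against the GC content of the annotated transcripts for the 80 members with a mean of at least 10 CPM, in E12KO over E12wt (left) and E47KO over E47wt (right). In E47KO Rps27l, at a GC content of 42.6%, is lowest (−0.12) and Rpl36, at 60.8%, is highest (0.53), and the rho is 0.73, against 0.49 in E12KO (over all 82 members).

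The effects of the lines were not shown to differ. In the interaction test, E47 effect minus E12 effect, 0 of 82 members were called with edgeR (0 of 15277 genes), and 0 lay above 0 at an unadjusted p under 0.05 (1.2% of all genes) and 0 below (1.83%) with edgeR, against 1 with DESeq2. The difference was above 0 in 47 of 82 members (50.7% of all genes), with a median of 0.03. Leaving out 1 library at a time, 32 to 68 members lay above 0. With the correction for GC content and length, chosen after seeing the data, 69 of 82 lay above 0 (52.2% of all genes). The median was then 0.07. Without the correction the difference was largest for Rps4l (0.90 ± 0.41), Rpl36 (0.32 ± 0.31), Rplp2 (0.26 ± 0.22) and Rps29 (0.24 ± 0.24). It was lowest for Rps27l (−0.26 ± 0.17), Rpl36al (−0.17 ± 0.18) and Rpl6l (−0.15 ± 0.24). No member had both knockouts apart from their wild types without overlap. In the single lines 3 of 82 members were higher without overlap in E12KO (6.46% of all genes) and 32 of 82 in E47KO (4.02%). The share of all genes apart in both lines was not counted, so no conclusion is drawn from this.

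The wild types of the 2 lines were set against each other to show how far cells without a knockout differ. In E47wt over E12wt, 79 of 82 members lay above 0 (48.5% of all genes) with a median of 0.08, beside 0.07 for E12KO and 0.09 for E47KO, which share these wild types. With the correction for GC content and length, chosen after seeing the data, 69 of 82 lay above 0 (45.2% of all genes). The corrected median was 0.05, beside 0.00 for E12KO and 0.05 for E47KO. Without the correction edgeR called 0 members (0.0% of 14892 genes) and DESeq2 called 0 members (0.0383% of all genes). At an unadjusted p under 0.05 with edgeR 2 lay higher, Rpl41 and Rps27l (2.05% of all genes), and 0 lower (1.77%). The groups did not overlap, higher in E47wt, for 17 of 82 members, where 5.08% of all genes behaved so, and lower for 1, Rpl6l (4.45% of all genes). Rps27l had 166, 157 and 156 CPM in E47wt, against 147, 148 and 142 CPM in E12wt (0.13 ± 0.05). Rpl41, the shortest ribosomal protein, had 394.5, 375.5 and 406 CPM in E47wt, against 326.5, 375.4 and 338 CPM in E12wt (0.17 ± 0.07, edgeR, adjusted p = 1.0), so its lowest E47wt and highest E12wt libraries nearly coincided.

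The intervals show how precisely each difference between groups was measured against the spread of the libraries. They take no account of the Xist state or of the trends on GC content and length, so they do not bound a knockout effect. The median half-width of the 95% interval was 0.17 on the log2 scale in the E12 comparison and 0.23 in the E47 comparison. The interval lay wholly inside a 1.5-fold change in either direction for 78 of 82 members in E12KO, all but Rpl36, Rpl6l, Rplp1 and Rps4l. In E47KO it did so for 76 members, all but Rpl36, Rpl6l, Rplp1, Rplp2, Rps29 and Rps4l. All 82 members in E12KO, and all but Rps4l in E47KO, lay inside a 2-fold change.

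The 4 members on the X chromosome had values close to 0 in both knockouts. Rps4x had 1335, 1344 and 1387 CPM in E12KO, 1330.3, 1342 and 1389.8 CPM in E12wt, 1390, 1289 and 1384 CPM in E47KO and 1320, 1431 and 1313 CPM in E47wt. Its log2 fold change was 0.01 ± 0.06 in E12KO and 0.00 ± 0.09 in E47KO (SE). Rpl10 had 0.01 ± 0.06 and 0.05 ± 0.09, Rpl39 0.06 ± 0.05 and −0.07 ± 0.09, and Rpl36a 0.05 ± 0.07 and −0.03 ± 0.09 in the E12 and E47 knockouts.

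Other genes of the pathway gave no calls either. Among ribosomal proteins outside the naming rule, Rack1, the scaffold on the small subunit, averaged 1031 ± 57.0 CPM in E47KO and 932 ± 28.6 CPM in E47wt (SD, n = 3 each). Fau, a ubiquitin-like fusion to a small subunit protein, averaged 176 ± 30.3 CPM in E47KO and 135 ± 11.2 CPM in E47wt, a log2 fold change of 0.38 ± 0.15 (edgeR, adjusted p = 0.971), close to that of Rplp2.

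The other pathway lists held no call in either knockout. None of the 76 mitochondrial ribosomal protein genes tested was called, with medians of 0.06 in E12KO (61 above 0) and 0.00 in E47KO (38 above 0). None of the 44 translation factors was called, with medians of 0.04 in E12KO (34 above 0) and −0.07 in E47KO (13 above 0), and none of the 66 ribosome biogenesis genes, with 0.04 (43 above 0) and −0.12 (12 above 0). Npm1 averaged 1276 ± 445 CPM in E47KO and 1455 ± 31.5 CPM in E47wt, so the E47KO spread covers the difference. None of the 24 growth control genes was called, with medians of 0.01 (13 above 0) and 0.00 (11 above 0). These are counts beside medians of 0.00 in E12KO and −0.01 in E47KO over all genes.

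Strand mattered for a few members. Counting both strands together, as the deposited tables do, kept 9.67% of the reads of Rpl23a and 25.3% of those of Rpl35, where the annotation has Tlcd1 on the strand opposite Rpl23a and Wdr38 and Arpc5l opposite Rpl35. It kept 94.6% for Rpl5, 97.7% for Rpl31 and 97.8% for Rps25, and came within 0.5% of the strand-specific count for 76 of 82 members. Rpl23a had 663.5, 625 and 637 CPM in E47KO, against 618, 598 and 616 CPM in E47wt, a log2 fold change of 0.07 ± 0.09 by edgeR on the strand-specific counts. The authors' deposited table gives it 0.35 for E47KO over E47wt with an unadjusted p of 0.0454. For E12KO over E12wt the authors' deposited table gives Rpl23a 0.26, where edgeR on the strand-specific counts gave 0.09 ± 0.06. In the tables deposited by the authors, 0 of 82 members had an adjusted p under 0.05 in either line, where 0.513% of the genes were called in the E12 line and 0.0796% in the E47 line.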

How the data were processed

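The submitters' processing notes name STAR 2.5, build mm9, DESeq and DESeq2, and the labels' protocols a stranded kit. The authors deposited whole-number counts per gene and library for both strands, the sense strand and the opposite strand. Opposite-strand counts, 97.1 to 97.2% of the strand-assigned reads, were used; rows that name no gene (unmapped 2.95 to 5.40%, multimapping 4.49 to 5.16%, no feature 5.41 to 7.37% and ambiguous 0.822 to 0.877% of reads) were left out. The authors also deposited a table per line with normalized signal, log2 fold changes, a test score and p-values, whose signal equals both-strand counts over 1 factor per library (within 1e-06). No source used here names the annotation release.

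Counts were tested in R 4.3.3 with edgeR 4.0.16 (quasi-likelihood F test, low-count filter by group, TMM, two-sided, Benjamini-Hochberg over all genes tested, called at 0.05), each line in its 6 libraries, and with DESeq2 1.42.0 as an alternative. All 82 members passed the filter in each comparison. Fold changes are log2 with SE taken as the fold change over the root of F. CPM is TMM-scaled over the 12 libraries, and RPKM divides it by the median coding transcript length of GENCODE M21 (GRCm38), or the longest transcript for Rps4l and Rpl6l. That reference was used for names, lengths, GC content and strand neighbours only. The edgeR steps of the E12 and E47 knockout comparisons were tested on simulated counts, which held no trend on GC content. Members, lists and the naming rule (the 8 highest and 8 lowest of each comparison and of RPKM, paralog pairs, X-linked members, the 5 most and least variable) were chosen with earlier results of these data known.

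What a replicate number marks is not stated. Deviations of same-numbered libraries correlated at 0.12, 0.23 and 0.47 between E47KO and E47wt. The numbers were taken to pair the E47 libraries in the replicate block and the sign-flip test only. The main E47 fit and the permutation test took the libraries as unpaired. That pairing is uncertain, since E47wt replicate 1 correlated better with E47KO replicate 2 (0.15) than with E47KO replicate 1 (0.12). Same-numbered libraries correlated at 0.10, 0.07 and −0.02 between E12KO and E12wt, where the numbers were not taken to pair. Intervals of shares cover counting error only. No library pair of a group agreed within sampling noise. Alternatives were other scaling, no filter, DESeq2, both strands, the replicate block, all 12 libraries, the Xist state, each library left out and, added after seeing the data, a correction for GC content and length. Some genes are not reported here.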

Additional observations from a re-analysis of the deposited data

How the results depend on the processing

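No member passed the adjusted threshold under any alternative run. Of the values of named members under the alternatives, 1026 kept their direction and side of the threshold and 62 turned in sign. The cause was not tested.

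With the correction for GC content and length, added after seeing the data, 41 members lay above 0 in E12KO, and 40 with the replicate block as well, and the E47KO median was 0.0489, or 0.0456 with the block. Under these corrections (with the block second) the E12KO values were −0.0775 and −0.0777 for Rpl10, −0.0513 and −0.0505 for Rps4x and −0.0429 and −0.0426 for Rpl21. The interaction values were 0.00195 and 0.00194 for Rpl39, 0.0274 and 0.0286 for Rpl30 and 0.00227 and 0.00130 for Rpl5. Those of E47wt over E12wt were −0.0313 and −0.0302 for Rpl7, −0.0292 and −0.0292 for Rpl7l1, −0.0288 and −0.0274 for Rps3a1, −0.0247 and −0.0439 for Rps4l and −0.00469 and −0.00411 for Rps24. In that comparison the Xist state as a covariate gave −0.0243 for Rpl7 and −0.0220 for Rps3a1, and the block alone −0.00542 for Rps4l. Rps4x there was 0.000346 with RLE size factors, 0.000927 without the low-count filter, 0.00274 with both strands and 0.000862 with all 12 libraries in 1 fit. Rpl10 in E12KO was −0.00108 without the filter, −0.000936 with DESeq2 and −0.000640 with all 12 libraries.

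Leaving out 1 library at a time, 47 to 79 members lay above 0 in E12KO and 54 to 76 in E47KO, and the interaction median ran from −0.0186 (without E12KO replicate 2) to 0.101 (without E12KO replicate 3). In E12KO the ranges were −0.0447 to 0.00632 for Rpl7, −0.0378 to 0.00926 for Rps27a, −0.0267 to 0.0303 for Rpl10, −0.0166 to 0.0203 for Rps4x, −0.00706 to 0.0196 for Rpl21, −0.00477 to 0.340 for Rps29 and −0.0201 to 0.428 for Rpl36. In E47KO they were −0.228 to 0.0341 for Rps27l, −0.220 to 0.0650 for Rpl36al, −0.152 to 0.0247 for Rpl22l1 and −0.0739 to 0.00177 for Rps24, each positive without E47KO replicate 2. For the interaction Rpl14 ran from −0.193 to 0.0303. In E47wt over E12wt they were −0.0311 to 0.00947 for Rpl10, −0.0474 to 0.0244 for Rps4x, −0.0244 to 0.0485 for Rpl7, −0.00318 to 0.0255 for Rpl7l1, −0.0220 to 0.0603 for Rps3a1 and −0.279 to 0.286 for Rps4l.

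With the replicate block 0 members were called in any comparison. The E12KO and E12wt libraries share only a number, and there 0 members lay at an unadjusted p under 0.05 with the block, against 1 without, and not every E12KO library correlated best with its own number. Nor did E47wt replicate 1 in the E47 comparison, or E12wt replicate 1 in E47wt over E12wt. Same-numbered libraries of the wild types correlated at 0.07, 0.28 and 0.30. In that comparison 4 members lay at an unadjusted p under 0.05 with the block, against 2 without. Over all 14892 genes, 636 lay higher in E47wt at that p with the block and 305 without. With 3 libraries a group, changes of the size seen here are smaller than the intervals of most members.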
